A study of Mus musculus with 11 samples.

Results

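The comparison set yolk sacs in which Hand1 was deleted by T-Cre (H1CKO) against yolk sacs that kept a normal Hand1 allele (control), at embryonic day 9.5 of the mouse. It took 7 of the 11 bulk RNA-seq libraries of the study, chosen by the genotype in the labels: 3 H1CKO libraries (H1CKO 5, 6 and 7) and 4 control libraries (control 1 to 4). The H1CKO embryos were T-Cre with 2 floxed Hand1 alleles by their genotype label, while the column names of the same libraries give a knockout allele over a floxed allele. The control embryos had 1 floxed Hand1 allele over a normal one, and their column names call them wild type. The other 4 libraries, H1H2H2, come from embryos with Hand2 in place of Hand1 on both alleles. They entered the count filter, the scaling and the model that estimates the spread, and are otherwise used only to rank genes by level. The labels name a Cre in H1CKO and in neither other group; what Cre does and what Hand1 loss does cannot be told apart here. In bulk RNA, fewer cells of a type and less RNA per cell cannot be told apart either.

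The mouse yolk sac is a double membrane around the embryo. Its outer visceral endoderm takes up maternal nutrients by endocytosis, breaks them down in lysosomes and secretes lipoproteins and plasma proteins before the liver does so. Its inner mesoderm forms matrix, smooth muscle, vessels and the first blood. HAND1 is a basic helix-loop-helix transcription factor of this mesoderm, of the lateral mesoderm and of parts of the heart, and it binds DNA together with E proteins. T (brachyury) marks the primitive streak and the nascent mesoderm, so T-Cre acts in mesoderm, that of the embryo included, and not in the visceral endoderm.

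Visceral endoderm markers were present in both groups, at lower levels in H1CKO. The H1CKO libraries also held transcripts that mark tissues of the embryo proper, so their RNA was not that of yolk sac markers alone. The 8 visceral endoderm markers summed to 7881 to 13655 CPM in H1CKO libraries and 32621 to 37704 CPM in control libraries (CPM, counts scaled to library size after TMM normalisation). Most markers of the embryo proper were higher in H1CKO libraries than in control libraries. The 6 heart muscle markers summed to 3151 to 8341 CPM in H1CKO, against 13.1 to 137.9 CPM in control, and the 6 neural tube markers to 65.3 to 76.4 CPM in H1CKO, against 0.149 to 1.28 CPM in control. The 3 somite markers in the table (Meox1, Tcf15 and Pax1; Uncx and Myf5 were not analysed here) summed to 30.8 to 39.6 CPM in H1CKO and 0.794 to 1.92 CPM in control. All 6 heart, all 6 neural and all 3 somite markers rose and all 8 endoderm markers fell. Of the 6 yolk sac mesoderm markers 4 fell and 1 rose. The 6 summed to 605 to 737 CPM in H1CKO and 1100 to 1426 CPM in control. All 3 tested neural crest markers rose, and of 2 tested surface ectoderm markers 1 rose and 1 fell. All 3 tested macrophage markers fell, as did 2 of 4 trophoblast, 1 of 4 parietal endoderm and 1 of 5 endothelial markers. None of 5 primitive erythroid markers was called. Among the heart, neural, somite and endoderm markers, Myl2 and Neurog2 had no count in any control library, and none was at 0 in every H1CKO library. These embryo transcripts differed between the same groups as all results given here, and their part in those results was not tested.

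Some libraries stood apart from the others of their group. Control 2 held 20652 CPM of the 15 parietal endoderm and basement membrane genes listed, while H1CKO held 4229 to 4665 CPM and the remaining controls 4524 to 4848 CPM. Control 1 held more heart muscle transcripts than the other controls. H1CKO 5 had the most heart and the most endoderm RNA of the H1CKO libraries but little RNA of trunk Hox genes, as shown with those genes. By Xist and Y-linked counts the 3 H1CKO libraries were male and the controls 3 female and 1 male. When sex was added to the model, 2932 genes were called higher and 2964 lower, against 3968 and 3753 without it. Total counts per library were 12019377 to 12373800 in H1CKO and 13948560 to 15465289 in control.

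Most promoters of genes lost or gained lacked the motifs looked for, and those of 4 genes are printed as examples that hold one. They are the 250 bases before the start, 5′ to 3′ on the gene's strand, from RefSeq (GRCm38.p6), with the motif in capitals. Slc39a8 (chr3:135825407-135825656) and Slc7a9 (chr7:35448842-35449091), both on the plus strand, encode carriers of the endoderm, for metal ions and for cystine, that fell. Their capitals mark AGATAA, a site of GATA factors, on either strand; each gene has another listed start whose window lacks these letters, and both were chosen for holding them. Ttn (chr2:76982548-76982797) and Myl7 (chr11:5898783-5899032), both on the minus strand, encode muscle proteins that rose, and the capitals mark a MEF2 site in Ttn and a CArG box, the SRF site, in Myl7.
Slc39a8: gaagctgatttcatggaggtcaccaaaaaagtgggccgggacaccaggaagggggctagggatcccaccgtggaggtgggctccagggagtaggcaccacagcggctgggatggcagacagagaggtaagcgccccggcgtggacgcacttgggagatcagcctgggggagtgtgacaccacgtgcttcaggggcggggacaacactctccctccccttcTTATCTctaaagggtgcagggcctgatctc
Slc7a9: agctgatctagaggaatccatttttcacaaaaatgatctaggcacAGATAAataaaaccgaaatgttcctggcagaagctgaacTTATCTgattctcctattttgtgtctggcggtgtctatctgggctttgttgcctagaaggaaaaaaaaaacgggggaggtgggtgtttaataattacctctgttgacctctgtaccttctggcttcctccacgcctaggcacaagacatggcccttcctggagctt
Ttn: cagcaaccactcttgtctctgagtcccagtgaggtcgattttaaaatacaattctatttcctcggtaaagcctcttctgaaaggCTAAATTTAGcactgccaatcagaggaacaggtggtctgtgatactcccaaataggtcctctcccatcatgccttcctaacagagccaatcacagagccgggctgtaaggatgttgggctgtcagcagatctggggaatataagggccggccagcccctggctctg
Myl7: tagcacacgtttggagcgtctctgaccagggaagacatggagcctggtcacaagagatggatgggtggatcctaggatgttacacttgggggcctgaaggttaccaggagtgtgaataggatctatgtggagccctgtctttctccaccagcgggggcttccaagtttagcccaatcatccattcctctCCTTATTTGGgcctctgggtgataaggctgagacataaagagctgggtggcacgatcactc

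Over the 13969 promoter windows of 300 bases that matched 10952 tested genes, AGATAA was found on either strand in 6.73%. It stood in 10.4% of the 1036 windows of genes called at least 2-fold lower and in 6.37% of the 1758 windows of genes called at least 2-fold higher. The HNF4 site CAAAGTCCA stood in 1.25% of the windows of the lower genes and 0.284% of those of the higher genes, against 0.430% of all. MEF2 sites stood in 0.967% of the windows of the higher genes and 0.386% of those of the lower genes, against 0.444% of all, and CArG boxes in 1.93% of the windows of the higher genes and 0.965% of those of the lower genes, against 1.30% of all. The hexamer CGTCTG, which HAND1 dimers are known to bind, stood in 8.13% of the windows of the higher genes and 8.49% of those of the lower genes, against 10.1% of all. These shares are descriptions without a test, and windows of 1 gene can overlap.

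Hand1 itself checked the labels. Hand1 (mm10 chr11:57828713-57832147) had 10.8, 6.18 and 5.95 CPM in the H1CKO libraries, against 58.1, 91.1, 41.9 and 31.1 CPM in the control libraries. Every H1CKO library was below every control library (log2 fold change -2.86, SE 0.445, edgeR quasi-likelihood adjusted p = 0.000202). Gene-level counts include reads of exons outside any deleted part, so the remaining counts do not show intact transcripts. Hand2, the closest relative of Hand1, had 70.5, 72.8 and 91.8 CPM in H1CKO, against 43.5, 42.3, 47.2 and 31.7 CPM in control (0.93, SE 0.319, adjusted p = 0.0273). The antisense gene Hand2os1 covers 19.6% of the Hand2 exons, and the strand setting of the counting is not given in the sources used here. Hand2 was no longer called once sex was in the model (0.70, adjusted p = 0.213), nor without control 1, 2 or 4 or H1CKO 6 or 7 (0.80 to 0.94, adjusted p = 0.0537 to 0.101).

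Other members of the family rose together. Of 17 tested basic helix-loop-helix genes related to Hand1, 11 rose and 1, Hand1, fell, while 27% of all tested genes rose and 25.6% fell. The list's median log2 fold change was 0.83, against 0.03 over all tested genes. The E protein gene Tcf3, a dimer partner of HAND1, had 205, 214 and 239 CPM in H1CKO and 106, 88.7, 95.5 and 92.5 CPM in control (1.2, SE 0.0991, adjusted p = 4.71e-06). Tcf12, which encodes another E protein, averaged 199 ± 13 CPM in H1CKO (SD, n = 3) and 99.7 ± 6.97 CPM in control (SD, n = 4), a log2 fold change of 1.00 (adjusted p = 5.09e-06). Id3, an inhibitor that binds E proteins and keeps them from DNA, stood at 59.5 to 60.9 CPM in H1CKO and 21.5 to 32.3 CPM in control (1.09, adjusted p = 4.34e-05). The groups did not overlap for any of these 3 genes, as was so for 31.5% of all tested genes with H1CKO higher and 29.1% with H1CKO lower. T, whose promoter drives the Cre, had 18, 72 and 93 counts in H1CKO and 1, 0, 0 and 0 in control, or 1.41, 5.50 and 7.10 CPM in H1CKO. The pooled ratio was 269, with a 95% counting interval of 47.6 to 10673.

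The difference between the groups was wide. Of 14671 tested genes 52.6% were called, 3968 higher and 3753 lower, at an adjusted p under 0.05. The larger changes lay on the higher side: 1892 genes (12.9%) were called at least 2-fold higher and 1101 (7.5%) at least 2-fold lower, 813 and 168 at least 4-fold, and 62 and 2 at least 64-fold. Of the calls 2731, or 35.4%, were under 1.5-fold. There were 75 called genes with a mean of at least 5 CPM in H1CKO and under 0.5 CPM in control, and 2 with the reverse. Genes were ranked by their level in the H1H2H2 libraries, which are outside this contrast, and cut into 5 bins of equal size. The lowest bin had 48.8% called higher and 7.70% lower, and the highest bin 9.03% higher and 49.4% lower. A gene that is low in H1H2H2 passed the count filter mainly where another group was high, so the filter itself favours higher calls in the lowest bin. The authors' deposited table calls 7812 genes at an FDR under 0.05, 3727 higher and 4085 lower, and 7347 genes were called by both, in the same direction.

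**Figure D1:**
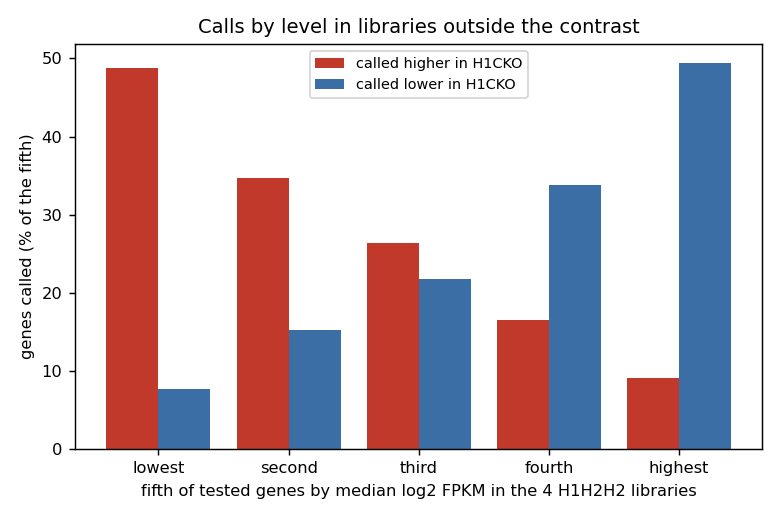
Share of tested genes called higher (red) and lower (blue) in H1CKO than in control, in 5 bins of genes ordered by median log2 FPKM in the 4 H1H2H2 libraries, which are not part of the contrast. Higher calls make up 48.8% of the lowest bin and 9.03% of the highest, and lower calls 7.70% of the lowest and 49.4% of the highest.

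The losses that weighed most in CPM were of endoderm secretion and uptake and of fibrillar collagen. By a rule, the 10 called genes with the largest loss and the 10 with the largest gain in mean CPM were taken, among those whose libraries did not overlap. Apob, the structural protein of secreted lipoproteins (chromosome 12), had 6058, 3274 and 3511 CPM in H1CKO, against 17120.5, 14610.0, 15727 and 17083 CPM in control (-1.91, SE 0.192, adjusted p = 1.15e-05). Cubn, the endocytic receptor cubilin, had 3633, 1968 and 1975 CPM in H1CKO, against 8286 to 9315 CPM in control. Col1a1, the main chain of type I collagen, had 459.7, 515 and 610.2 CPM in H1CKO, against 2511, 2543, 2639.8 and 2569 CPM in control (-2.28, SE 0.277, adjusted p = 3.7e-05). In the endoderm genes H1CKO 5 was the highest of the 3 H1CKO libraries, and in Col1a1 it was the lowest. The others were Afp, Apoa1, Apoe, Fn1 (fibronectin), Col3a1, Slc2a3 (a glucose transporter) and Sepp1 (a selenium carrier; 20.5% of its exon bases overlap Ccdc152), with log2 fold changes of -1.84, -1.83, -1.30, -0.67, -1.41, -1.0 and -1.96. Together the 10 genes fell by 33450 CPM.

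The 10 largest gains added 10938 CPM. Ttn, the sarcomere spring titin (chromosome 2), had 6957, 2988 and 2559.6 CPM in H1CKO, against 122, 11.6, 13 and 14.4 CPM in control. Myh6, the alpha myosin heavy chain of heart, had 1439, 691 and 546 CPM in H1CKO, against 26.8, 0.343, 0.149 and 0.132 CPM in control. Control 1 set the control mean of both genes. Their log2 fold changes were 6.69 and 7.03 (adjusted p = 6.43e-05 and 0.000293), and 8.28 and 11.96 without control 1; for Ttn the value was 6.09 without H1CKO 5. Pkm, pyruvate kinase, had 2008, 2078 and 2435 CPM in H1CKO, against 674 to 939 CPM in control (1.42, adjusted p = 1.56e-05), and pseudogene Gm6560 matches 65.5% of its transcript at 98.4% identity. Grb10, an imprinted adaptor that restrains insulin and IGF receptors, had 1202, 1257 and 1203 CPM in H1CKO, against 382 to 473 CPM in control (1.54, SE 0.0962, adjusted p = 9.84e-07). Igfbp5, Map1b, Peg3, Aldoa, Vcan and Nedd4 completed the gains, at 2.01, 2.32, 0.56, 1.10, 1.2 and 0.45.

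**Figure D2:**
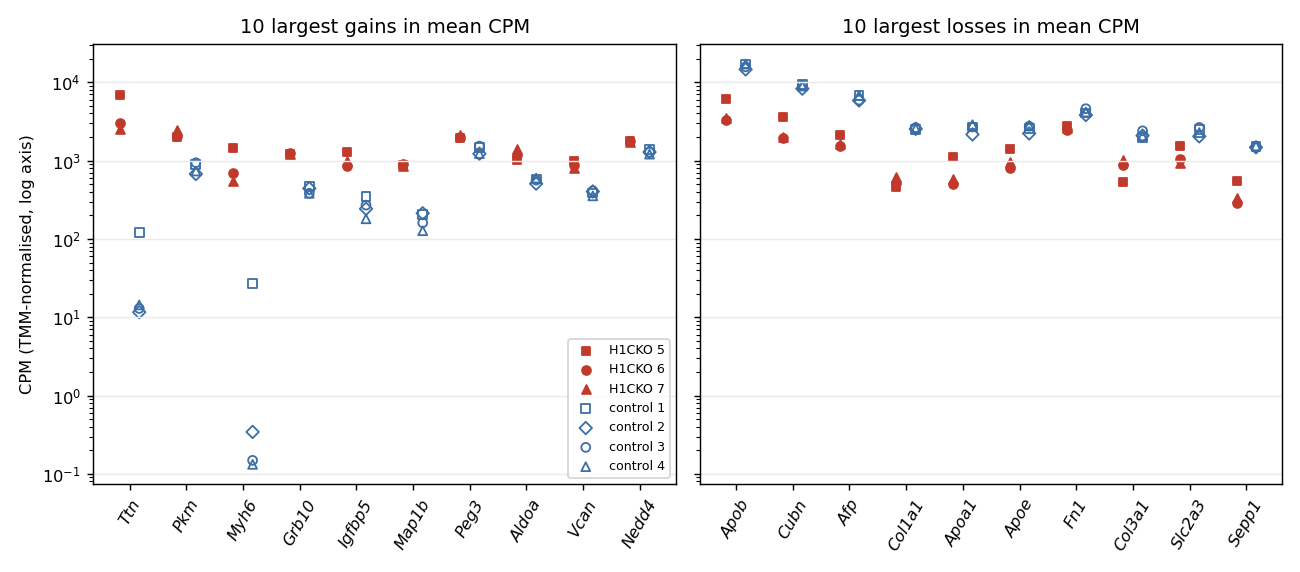
CPM (log axis) in each library for the 10 genes with the largest gain and the 10 with the largest loss in mean CPM; filled red symbols are H1CKO libraries and open blue symbols control libraries. The genes were chosen for groups that do not overlap. Control 1 stands above the other controls in Ttn (122 CPM) and Myh6 (26.8 CPM), and H1CKO 5 is the highest H1CKO library in Ttn, Myh6, Apob and Cubn.

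Lipoprotein and uptake genes of the endoderm fell almost throughout. Of 16 tested apolipoprotein and lipid transfer genes 14 fell and 1 rose, with a median log2 fold change of -1.46, and of 16 endocytic genes 13 fell and none rose (median -1.13). The apolipoprotein list summed to 7543 ± 2419 CPM in H1CKO (SD, n = 3) and 24729 ± 1718 CPM in control (SD, n = 4). The riser, picked out after its values were seen, was Pltp, a phospholipid transfer protein that other tissues also make, with 9.42, 12.4 and 11.8 CPM in H1CKO and 4.30 to 6.53 CPM in control (1.11, adjusted p = 0.00207); 21% of its exon bases overlap Ctsa. Fcgrt, the neonatal Fc receptor that carries maternal IgG, had 12.4, 12.1 and 12.8 CPM in H1CKO, against 49.7, 43.6, 46.9 and 47.7 CPM in control (-1.91, SE 0.168, adjusted p = 5.7e-06). It differed little among the H1CKO libraries, while Apob and Cubn were higher in H1CKO 5 than in H1CKO 6 and 7. The folate receptor gene Folr1 had 93.1, 66.0 and 67.9 CPM in H1CKO and 169 to 218 CPM in control (-1.39, adjusted p = 7.46e-06), and Dab2, the adaptor of the megalin and cubilin receptors, 522 to 779 CPM in H1CKO and 1506 to 1909 CPM in control (-1.49, adjusted p = 1.17e-05).

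Plasma protein genes followed. Of 33 tested, 27 fell and 2 rose (median -1.54), and the list summed to 3092 to 4617 CPM in H1CKO and 11227 to 13404 CPM in control. Serpind1, heparin cofactor II, had 7.38, 3.89 and 6.03 CPM in H1CKO, against 41.5, 43.5, 35.2 and 40.2 CPM in control (-2.80, SE 0.185, adjusted p = 1.34e-06). Fga, the fibrinogen alpha chain, had 159, 108 and 119.6 CPM in H1CKO, against 489.5, 433, 484 and 501 CPM in control (-1.89, adjusted p = 4.3e-06). Trf, transferrin, which carries iron, fell by 1.67 on the log2 scale (adjusted p = 6.82e-06), and 76.7% of its exon bases lie in the overlapping gene model Gm20425. The 2 risers, picked out after their values were seen, were Serpinf1, a secreted serpin of connective tissue, with 21.8 to 33.4 CPM in H1CKO and 6.95 to 10.2 CPM in control (1.68, adjusted p = 0.00425), and the adhesion protein gene Vtn, with 13 to 14.6 CPM in H1CKO and 4.54 to 12.1 CPM in control (0.89, adjusted p = 0.0224). Serpinf1 was not called once sex was in the model (adjusted p = 0.0712), nor Vtn without control 2 or 3 or any 1 H1CKO library (0.69 to 0.91, adjusted p = 0.0522 to 0.0678).

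The transcription factors of endoderm divided. Of 27 tested, 13 fell and 6 rose (3 once sex was in the model), with a median of -0.57. Nr1h4, the bile acid receptor FXR, had 3.14, 0.840 and 2.06 CPM in H1CKO, against 11.1 to 14.8 CPM in control (-2.62, adjusted p = 3.28e-05). Maf, a bZIP factor, and Creb3l3, a membrane-bound factor of lipid metabolism, fell (-1.29 and -1.21, adjusted p = 5.15e-06 and 6.49e-06). The risers were Foxa1, Gata4, Sox17, Hhex, Onecut1 and Prox1, which are also expressed in gut, liver bud, heart or vessels of the embryo. Prox1, chosen after its values were seen, had 26.5, 18.2 and 17.8 CPM in H1CKO, against 11.7, 5.01, 3.87 and 3.37 CPM in control (1.80, SE 0.352, adjusted p = 0.00103), with control 1 the highest control, as in the heart genes.

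Genes of the apical surface and of the lysosome also fell, with smaller list medians than the plasma protein genes. Of 30 tested brush border and epithelial genes 22 fell and 4 rose (2 with sex in the model, and 2 without control 3 or any 1 H1CKO library), with a median of -0.77. Vil1, which bundles actin in microvilli, had 111, 83.4 and 93.5 CPM in H1CKO, against 240.2, 204, 262 and 260.0 CPM in control (-1.33, adjusted p = 5.24e-06). Cdh1, E-cadherin, had 159 to 218 CPM in H1CKO and 364 to 449 CPM in control (-1.18, adjusted p = 9.72e-06), and the tight junction gene Cldn2 had 56.4 to 102 CPM in H1CKO and 222 to 259.9 CPM in control (-1.73, adjusted p = 1.47e-05). Pdzk1, a scaffold of apical transporters (47.6% of its exon bases overlap Gpr89), fell by 1.27. Of 42 lysosomal genes 34 fell and none rose (median -0.74). Ctsc, cathepsin C, had 113, 61.2 and 65.9 CPM in H1CKO, against 293, 270.4, 303 and 300.1 CPM in control (-1.87, adjusted p = 1e-05). Lamp2, a protein of the lysosome membrane found in most cells, had 115 to 132 CPM in H1CKO and 204 to 219 CPM in control (-0.78, SE 0.0748, adjusted p = 9.29e-06). Ctsl, the most abundant of the list in control, fell by 1.12 (28.2% of its exon bases overlap another gene).

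Many enzyme genes of the endoderm fell with them, while amino acid carrier genes were called in both directions. Of 36 tested genes of tryptophan use and drug metabolism 22 fell and 6 rose (3 with sex in the model). Qprt, which makes a precursor of NAD from tryptophan, had 23.1, 19 and 21 CPM in H1CKO, against 54.7, 56, 63.6 and 66.7 CPM in control (-1.52, SE 0.107, adjusted p = 2.08e-06), and Kynu, upstream of it, fell by 1.90 (adjusted p = 2.16e-05). The efflux pump gene Abcb1b had 4.4, 4.43 and 2.75 CPM in H1CKO and 14.1 to 18.4 CPM in control (-2.14, adjusted p = 4.71e-06). Gstm1 fell by 1.75, and a pseudogene matches 51.0% of its transcript. The riser with the largest change, chosen after its values were seen, was Cyp26a1, which degrades retinoic acid and is a gene of the tail bud and hindbrain, with 11.8, 13.6 and 18.1 CPM in H1CKO and 1.49 to 3.43 CPM in control (2.60, adjusted p = 3.38e-05). Of 29 amino acid transporter genes 11 fell and 6 rose (median 0.05), a total near the 52.6% called over all tested genes. Slc43a2 and Slc7a9, transporters of neutral amino acids and of cystine, fell (-1.52 and -1.81, adjusted p = 7.95e-06 and 1.51e-05), and Slc38a3, a glutamine carrier chosen after its values were seen, had 3.82 to 6.03 CPM in H1CKO and 0.529 to 1.35 CPM in control (2.27, adjusted p = 0.00015).

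Most of the iron genes that were called moved in the same direction as the endoderm. Of 21 tested, 9 fell and 1 rose (median -0.38), while 25.6% of all tested genes fell and 27% rose. The metal importer gene Slc39a8, whose promoter is printed above, had 148, 115 and 83.0 CPM in H1CKO, against 484, 499, 447 and 549.9 CPM in control (-2.10, SE 0.163, adjusted p = 3.41e-06). Slc40a1, ferroportin, the only known iron exporter of cells, had 52.2, 32.6 and 35.7 CPM in H1CKO and 128 to 158 CPM in control (-1.82, adjusted p = 1.63e-05). Its partner Heph, a ferroxidase, was the riser, with 35.8 to 38.6 CPM in H1CKO and 14.5 to 22.2 CPM in control (0.95, SE 0.150, adjusted p = 0.000236).

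**Figure D3:**
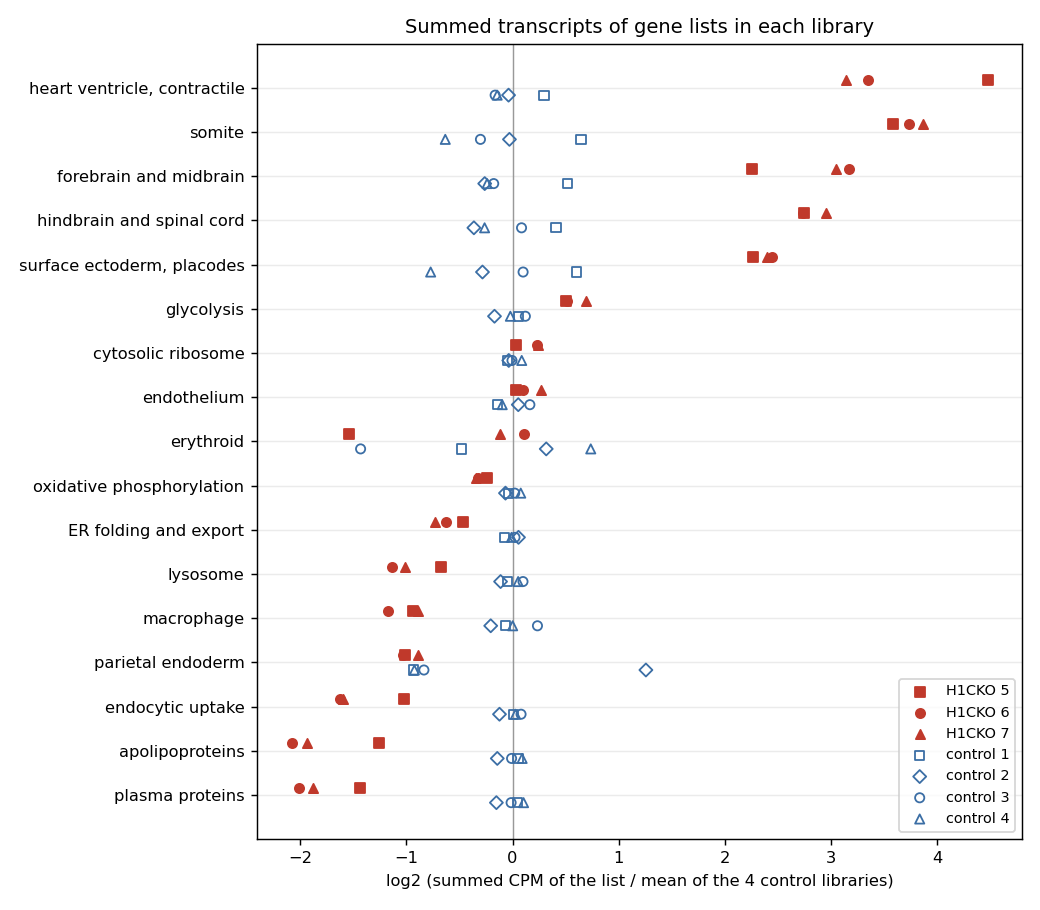
Summed CPM of 17 gene lists in each library, as log2 of the ratio to the mean of the 4 control libraries; filled red symbols are H1CKO and open blue symbols control. Heart, neural, somite and surface ectoderm lists lie to the right in every H1CKO library, endoderm lists to the left, and H1CKO 5 holds the most heart and the most apolipoprotein transcripts of the 3; control 2 stands apart in parietal endoderm (20652 CPM).

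Heart genes rose as a whole and most in H1CKO 5. Of 20 tested ventricular contractile genes all 20 rose (median 5.14), of 13 atrial and conduction genes 11 rose and 1 fell, and of 25 heart factors 19 rose and none fell. The ventricular list summed to 10540 CPM in H1CKO 5 and 4187 and 4828 CPM in the other H1CKO libraries, against 423 to 582 CPM in control. Myl2, the ventricular light chain, had 109.6, 42.3 and 27.2 CPM in H1CKO and no count in any control library, at least 1129-fold higher with 3 counts over the control group as the floor; the bound was 663-fold without H1CKO 5. Tnnt2, cardiac troponin T, had 260.1, 126 and 109 CPM in H1CKO, against 5.90, 1.24, 1.49 and 1.39 CPM in control (6.04, SE 0.478, adjusted p = 3.83e-06; 6.86 without control 1). Myl7, an atrial light chain whose promoter is printed above, had 307, 157 and 129.8 CPM in H1CKO, against 8.31, 0.0687, 1.04 and 0.397 CPM in control (6.34, adjusted p = 5.54e-05; 8.59 without control 1). The factor gene Nkx2-5, which starts the heart program, had 43.5, 16.4 and 18.1 CPM in H1CKO and 0.0687 to 0.670 CPM in control (6.10, adjusted p = 6.53e-06; 5.49 without H1CKO 5). Smyd1, a methyltransferase of muscle, rose by 4.04 (adjusted p = 8.05e-06). Tbx20, a heart factor that the yolk sac also expresses, was not called, with 203, 135 and 119 CPM in H1CKO and 132, 134, 151 and 131 CPM in control (0.15, SE 0.222, adjusted p = 0.591). The atrial gene that fell, named after its values were seen, was Stard10, a lipid transfer protein that endoderm also expresses (-0.99, adjusted p = 4.14e-05).

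Many genes of the nervous system rose. The forebrain and midbrain list summed to 36.1 to 68.2 CPM in H1CKO and 6.32 to 10.9 CPM in control, while the general neural list, whose genes other tissues also express, summed to 931 to 983 CPM in H1CKO and 494 to 692 CPM in control. Of 11 tested forebrain and midbrain genes 9 rose, of 18 hindbrain and spinal cord genes 17, of 25 general neural genes 23 and of 18 neural crest genes 13, and none of these genes fell. Nkx2-1, of the ventral forebrain, thyroid and lung, had 1.37 to 2.12 CPM in H1CKO and no count in control, at least 32.8-fold higher by the same floor. Olig2, of motor neuron progenitors, had 3.30, 7.48 and 6.34 CPM in H1CKO and 1 count in control (ratio 328, 95% counting interval 58.2 to 12994). Pou3f2 and Pax6, of neural progenitors, stood at 14.7 to 19.5 and 8.78 to 10.1 CPM in H1CKO, against 0 to 0.223 and 0 to 0.355 CPM in control. Sox1, of the early neural plate, and Sox10, of neural crest, had 320 and 299 counts over H1CKO and 3 counts each over control (ratio 157, interval 53.1 to 764, and ratio 146, interval 49.6 to 714). While Pax6 stood within 8.78 to 10.1 CPM in the 3 H1CKO libraries, other neural genes differed more among them. Pax3, of the dorsal neural tube and somites, had 2.67 CPM in H1CKO 5 and 13.8 and 12.7 CPM in the other H1CKO libraries, against 0.149 to 0.426 CPM in control. Rmst, a neural long noncoding RNA, likewise had 2.12, 13.5 and 8.85 CPM in H1CKO and 0 to 0.213 CPM in control.

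Genes that mark other tissues of the embryo were called as well, most of them higher. Of 16 tested somite genes 14 rose (9 with sex in the model), of 18 surface ectoderm and placode genes 15 rose and 1 fell, of 19 foregut, hindgut and notochord genes 11 rose and 4 fell, and of 26 kidney, limb and lateral plate genes 18 rose and none fell. Foxc2, of somites and head mesenchyme, had 21, 20.6 and 28 CPM in H1CKO, against 0.639, 0.275, 0.819 and 0.529 CPM in control (5.35, SE 0.272, adjusted p = 3.99e-07). Foxi3, of pharyngeal and placodal ectoderm, had 125 counts over H1CKO and 1 over control. Osr1, of intermediate mesoderm, had 13.4 to 16.6 CPM in H1CKO and 0.745 to 2.63 CPM in control (3.61, adjusted p = 3.09e-05; 4.22 without control 1), and Prrx2, of limb and face mesenchyme, rose by 3.41 (adjusted p = 1.1e-05). The ectoderm gene that fell, named after its values were seen, was the keratin gene Krt14, at 0.458 to 0.550 CPM in H1CKO and 1.19 to 2.16 CPM in control (-1.71, adjusted p = 0.0172), a call lost without H1CKO 6 or 7 (adjusted p = 0.0536 and 0.0502).

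The Hox genes, which mark position along the trunk by their order in 4 clusters, separated H1CKO 5 from H1CKO 6 and 7. The 8 tested genes of paralogue groups 1 to 3, expressed from the hindbrain on, all rose. Hoxa2 had 11.9, 8.93 and 10.3 CPM in H1CKO, against 2.06, 0.618, 1.27 and 0.0662 CPM in control (3.38, SE 0.519, adjusted p = 0.000187; 3.97 without control 1). Hoxb2 had 26.9 to 32 CPM in H1CKO and 4.76 to 12.4 CPM in control (1.75, adjusted p = 0.000259), with 58.5% of its exon bases in overlapping gene models, and Hoxd3 13.9 to 29.4 CPM in H1CKO and 0.728 to 2.54 CPM in control (3.58, adjusted p = 0.000628), with 79.3%. Of the 24 tested genes of groups 4 to 13, expressed further back, 10 rose and 1 fell, and H1CKO 5 was the lowest H1CKO library in all 24. Its level was a median 0.149 of the mean of the other 2, from 0.0141 to 0.508, against a median of 0.704 in groups 1 to 3. This division was drawn after the values were seen.

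Hoxb9, of the thoracic region, had 1.18 CPM in H1CKO 5, 25.2 in H1CKO 6 and 32 in H1CKO 7, against 0.781, 2.95, 2.53 and 0.463 CPM in control (3.53, SE 0.917, adjusted p = 0.0064). H1CKO 5 lay within the range of the controls, as it did for Hoxa9, with 1.18, 15.3 and 19.2 CPM in H1CKO and 0.397 to 4.19 CPM in control, and for Hoxd4, with 2.12, 23.2 and 31 CPM in H1CKO and 1.26 to 5.15 CPM in control (45.1% of its exon bases overlap another gene model). Hoxc8 went the other way, with 2.75, 16.1 and 18.4 CPM in H1CKO, against 35.2, 37.6, 32.2 and 31.6 CPM in control (-1.46, SE 0.484, adjusted p = 0.0233). It was the most abundant of these 24 Hox genes in control. The calls on Hoxb9, Hoxa9, Hoxa5, Hoxa7, Hoxd9, Hoxb8 and Hoxc8 did not hold with sex in the model (adjusted p = 0.0777 to 0.304), those on Hoxb9, Hoxa9, Hoxa7, Hoxd9, Hoxd4 and Hoxb8 with limma-voom (adjusted p = 0.0703 to 0.122), and that on Hoxa9 also with DESeq2 (adjusted p = 0.0517) and without control 1, 3 or 4 or H1CKO 6 or 7. Hoxb8 was not called without control 4 or H1CKO 6 or 7, Hoxa7 and Hoxd9 without H1CKO 6 or 7, and Hoxa5 without H1CKO 7 (adjusted p = 0.058 to 0.139 for these 4 genes). Without H1CKO 5, 6 of the 10 central and 6 of the 10 posterior Hox genes listed were called higher, against 3 and 3 with it; without control 2 the posterior count was 7. Without H1CKO 6 the counts were 1 and 1, without H1CKO 7 they were 0 and 1, and with sex in the model both were 0. T and Aldh1a3, a retinoic acid enzyme of eye and ear, were likewise lowest in H1CKO 5 among the H1CKO libraries, Aldh1a3 with 0.785, 9.62 and 8.85 CPM in H1CKO and 0.142 to 0.463 CPM in control.

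**Figure D4:**
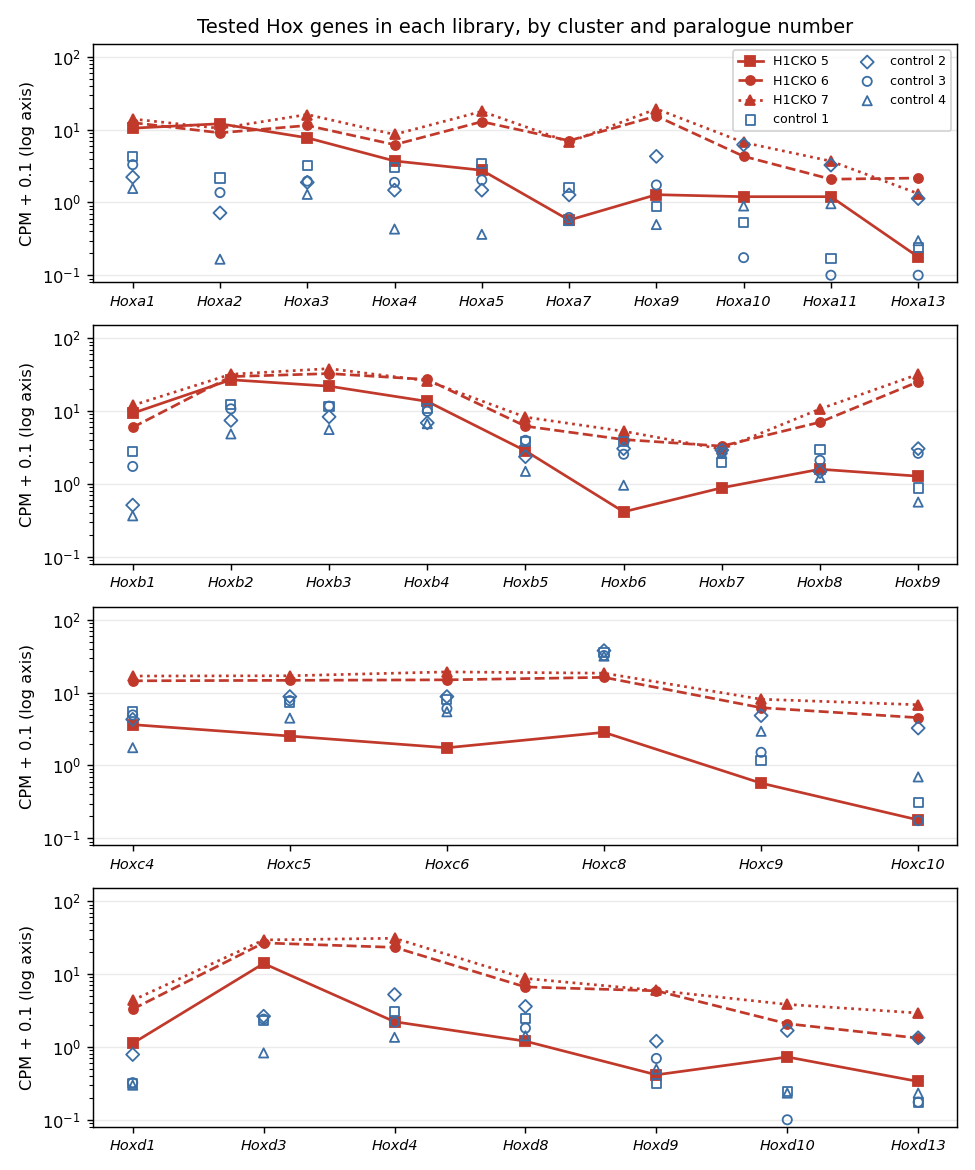
CPM plus 0.1 (log axis) of all tested Hox genes in the 4 clusters, ordered by paralogue number; red lines are the 3 H1CKO libraries and open blue symbols the 4 control libraries. In groups 1 to 3 H1CKO 5 stands at 0.273 to 1.24 of the mean of the other 2 H1CKO libraries, and from group 4 on H1CKO 5 is the lowest of the 3 in all 24 genes; Hoxc8 is higher in every control library than in any H1CKO library.

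Several genes of fibrillar matrix, made by the mesoderm in which Hand1 is expressed, fell. Of 41 tested matrix and basement membrane genes 18 fell and 4 rose (median -0.67). Of 29 extraembryonic mesoderm genes 11 fell and 7 rose (3 with sex in the model, 4 without control 4 or H1CKO 5). Over all tested genes 25.6% fell and 27% rose. The total called in the matrix list lies near the 52.6% of all tested genes. The share of mesoderm genes that rose lies near that of all. Col1a2, the partner chain of Col1a1, had 280.0, 376 and 425 CPM in H1CKO, against 1420.3, 1388, 1409 and 1346 CPM in control (-1.95, SE 0.232, adjusted p = 3.3e-05). Col6a3, of microfibrillar collagen, had 10.6 to 13.3 CPM in H1CKO and 59.4 to 81.3 CPM in control (-2.60, adjusted p = 1.82e-05), and Dcn, a proteoglycan that binds collagen, 10.6 to 14.3 CPM in H1CKO and 50.6 to 57.0 CPM in control (-2.07, adjusted p = 1.77e-05). For these genes, as for Col1a1 and Col3a1, H1CKO 5 was the lowest library. The mesodermal factor Foxf1 had 38.2, 56.1 and 71.0 CPM in H1CKO, against 65.1, 54, 70.6 and 56.6 CPM in control, and the groups overlapped (-0.16, SE 0.213, adjusted p = 0.551). Prrx1, a factor of mesenchyme that limb and head also express, had 23.1, 39.7 and 31.1 CPM in H1CKO and 1.79 to 5.29 CPM in control (3.14, adjusted p = 0.000188).

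Basement membrane genes could be compared only with control 2 in view. Nid1, nidogen, had 156, 172 and 187 CPM in H1CKO, against 1184 CPM in control 2 and 184 to 205 CPM in the other controls (-1.37, SE 0.700, adjusted p = 0.12; -0.23 without control 2, adjusted p = 0.695). Col4a1, of type IV collagen, had 1316 to 1513 CPM in H1CKO, against 1449, 7129, 1494 and 1507 CPM in control (-1.06, adjusted p = 0.171; -0.13 without control 2, adjusted p = 0.819). Of 13 mesothelial genes 5 fell and 3 rose (1 with sex in the model), against 25.6% and 27% of all tested genes. Upk3b, of the mesothelial surface, had 12.5, 12.3 and 16.7 CPM in H1CKO, against 44.0 to 57.9 CPM in control (-1.88, adjusted p = 1.13e-05). Aldh1a2, which makes retinoic acid in mesothelium and in somites, had 12.5, 21.5 and 21.3 CPM in H1CKO, against 0.132 to 2.91 CPM in control (3.42, adjusted p = 0.000156). Of 17 smooth muscle genes 13 rose, many of which heart muscle also expresses: Cnn1, calponin, had 26.3, 15.5 and 11.3 CPM in H1CKO and 0.745 to 1.79 CPM in control (3.75, adjusted p = 1.86e-05), with H1CKO 5 the highest as in the heart genes. Srf, whose protein binds the CArG box, had 88.5 to 107 CPM in H1CKO and 56.6 to 62.6 CPM in control (0.65, adjusted p = 0.000244).

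Few endothelial genes and no red cell genes were called. Of 26 tested endothelial genes 3 rose and 2 fell, and of 19 arterial and venous genes 10 rose and 1 fell. Over all tested genes 27% rose and 25.6% fell, and the arterial and venous total lies near the 52.6% called. The endothelial genes called higher were 5 under upper-quartile scaling and 6 with only the 7 libraries fitted. They were 7 without control 2 and H1H2H2 9 together. Kdr, the main VEGF receptor of endothelium, had 169, 187 and 205 CPM in H1CKO, against 152, 165, 188 and 149.8 CPM in control (0.19, SE 0.193, adjusted p = 0.428), and the groups overlapped. Flt1, a decoy VEGF receptor, had 91.1, 106 and 125 CPM in H1CKO and 63 to 71.8 CPM in control (0.69, adjusted p = 0.00192). Plvap, of capillary diaphragms, had 49.3 to 66.6 CPM in H1CKO and 77.1 to 109 CPM in control (-0.62, adjusted p = 0.0054). Cxcr4, a chemokine receptor of arterial and other embryo cells, had 8.48 to 13 CPM in H1CKO and 0.521 to 1.42 CPM in control (3.21, adjusted p = 1.03e-05). Lyve1, a hyaluronan receptor of yolk sac endothelium and macrophages, had 38.7, 24.8 and 25.9 CPM in H1CKO, against 121, 103, 165 and 137 CPM in control (-2.14, SE 0.178, adjusted p = 4.73e-06).

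None of 16 tested erythroid genes was called by edgeR, DESeq2 or limma-voom, with 0 at an unadjusted p under 0.05 in each. The red cell factor gene Gata1 had 5.18, 17 and 14.2 CPM in H1CKO, against 11.9, 16.3, 6.40 and 27.1 CPM in control (-0.35, SE 0.486), and the groups overlapped. The erythroid list ran from 2589 to 8107 CPM in H1CKO and from 2791 to 12542 CPM in control, with H1CKO 5 and control 3 the lowest of their groups. Of 19 progenitor genes 3 rose and 5 fell (1 with sex in the model, 3 without control 4), against 27% and 25.6% of all tested genes. Mecom and Meis1, factors of blood stem cells that embryo mesoderm and neural tissue also express, had 26.5 to 31.8 and 123 to 138 CPM in H1CKO, against 5.16 to 8.10 and 40.8 to 64.9 CPM in control (2.15 and 1.25, adjusted p = 1.7e-05 and 8.69e-05). Of 9 macrophage genes 5 fell. C1qb, of complement, had 0, 0.305 and 0.0763 CPM in H1CKO, against 0.670 to 1.92 CPM in control (-3.18, SE 0.743, adjusted p = 0.00335; -4.75 without H1CKO 6).

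Energy metabolism divided between the cytosol and the mitochondrion. Of 27 tested genes of glucose uptake and glycolysis 25 rose and 1, Slc2a3, fell (median 1.19), while of 46 nuclear genes of oxidative phosphorylation 30 fell and none rose (median -0.34), and of 35 mitochondrial ribosome genes 18 fell and none rose (median -0.30). The medians kept these signs under each of the 3 other scalings, among which the median of all tested genes moved from 0.02 to 0.09. Hk2, hexokinase 2, which traps glucose in the cell, had 204, 251 and 282 CPM in H1CKO, against 60, 49.9, 66.7 and 45.9 CPM in control (2.14, SE 0.206, adjusted p = 9.29e-06). Slc16a3, which exports lactate, had 152, 171 and 200.4 CPM in H1CKO, against 26.9, 18.3, 22.4 and 18.9 CPM in control (3.01, SE 0.286, adjusted p = 8.75e-06). Pdk1, a kinase that inhibits pyruvate dehydrogenase, had 163 to 186 CPM in H1CKO and 59.8 to 71.3 CPM in control (1.44, adjusted p = 5.19e-06). In these 3 genes H1CKO 5 was the lowest H1CKO library, the reverse of its order in the heart genes. Eno2, the neuronal enolase, had 19.4 to 30.6 CPM in H1CKO, against 1.19 to 1.78 CPM in control (4.00). Slc2a3, a high-affinity glucose transporter, had 1539, 1062 and 936 CPM in H1CKO, against 2472, 2040.5, 2651 and 2279 CPM in control (-1.0, SE 0.213, adjusted p = 0.00183).

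The changes in mitochondrial genes were small. Ndufa8, of complex I, had 36, 31.6 and 36.9 CPM in H1CKO, against 53.3, 58.5, 68.7 and 66.7 CPM in control (-0.83, SE 0.106, adjusted p = 5.31e-05), and Mrps26, of the small mitochondrial ribosome subunit, had 30 to 32.7 CPM in H1CKO and 47.5 to 58.6 CPM in control (-0.78, adjusted p = 2.58e-05). Atp5b, the catalytic subunit of ATP synthase and the most abundant of the list in control, was not called, with 884 to 968 CPM in H1CKO and 979 to 1092 CPM in control (-0.17, adjusted p = 0.161); it was called with only the 7 libraries fitted (-0.21, adjusted p = 0.0329). Of 59 cytosolic ribosome genes 5 rose and none fell (median 0.17), a count that ran from 0 to 17 over the alternatives. Rpl22 stood at 234 to 271 CPM in H1CKO and 199.6 to 218 CPM in control (0.32, adjusted p = 0.00861; 0.0658 with sex in the model and 0.0630 without H1CKO 6).

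Genes of the secretory pathway fell with the secreted products. Of 30 tested genes of folding in the endoplasmic reticulum and export from it 28 fell and 1 rose (median -0.65). Xbp1, a factor that expands the secretory pathway, had 111, 75.1 and 70.1 CPM in H1CKO, against 215, 215, 205 and 203 CPM in control (-1.29, SE 0.135, adjusted p = 1.5e-05). Sec24d, of the vesicle coat, had 69.9, 63.1 and 54 CPM in H1CKO and 130.1 to 165 CPM in control (-1.23, adjusted p = 5.39e-06), and the chaperone gene Calr 834 to 1058 CPM in H1CKO and 1435 to 1719 CPM in control (-0.79, adjusted p = 0.000212). The riser, named after its values were seen, was Ero1l, an oxidase of disulfide formation, with 105 to 111 CPM in H1CKO and 80.5 to 85.7 CPM in control (0.38, adjusted p = 0.0388). That call was lost without any 1 of the 7 libraries (adjusted p = 0.0709 to 0.139).

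**Figure D5:**
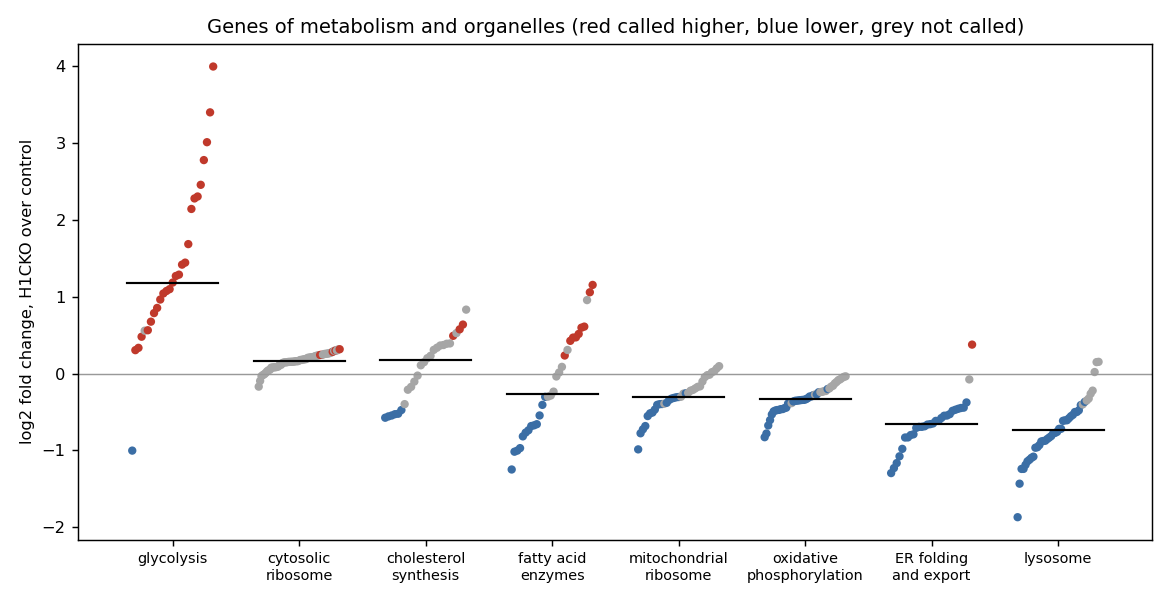
Log2 fold change of each tested gene (H1CKO over control) in 8 lists of metabolism and organelles; red points were called higher, blue lower and grey not called, and bars are list medians. The glycolysis genes lie above 0 apart from Slc2a3 (-1.0), and the oxidative phosphorylation genes all lie below it, with medians of 1.19 and -0.34.

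Lipid synthesis genes were called in both directions. Of 26 tested cholesterol synthesis genes 3 rose and 6 fell, and of 30 fatty acid genes 9 rose and 13 fell, while 27% of all tested genes rose and 25.6% fell; the cholesterol shares lie below these, and that of fatty acid genes that rose lies near. Fads1, a desaturase, had 111, 151 and 148 CPM in H1CKO, against 57.7 to 73.8 CPM in control (1.06, adjusted p = 0.000139), and Elovl1, an elongase of very long chains, had 46.4 to 62 CPM in H1CKO and 110.3 to 138 CPM in control (-1.25, adjusted p = 6.39e-06). Hmgcs1 and Cyp51, of cholesterol synthesis, rose by 0.58 and 0.64 (adjusted p = 0.00731 and 0.00992), calls that did not hold with sex in the model (adjusted p = 0.0911 and 0.114) and for Cyp51 also without H1CKO 6 (adjusted p = 0.0733). With sex in the model none of the cholesterol genes was called higher, and without control 3 there were 9, against 1 without H1CKO 6.

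Many growth factor and guidance genes rose. Of 25 tested FGF pathway genes 14 rose and 5 fell (median 0.85), and of 37 guidance genes 24 rose and 2 fell (median 1.05). Fgf8, a ligand of the midbrain border, limb and tail, had 7.62, 6.64 and 6.95 CPM in H1CKO, against 0.142, 0.137, 0 and 0 CPM in control (6.49, SE 0.585, adjusted p = 6.49e-06). Spry2 and Etv5, both targets of FGF signalling, went opposite ways: Spry2 had 21.5 to 26.1 CPM in H1CKO and 5.23 to 8.56 CPM in control (1.65, adjusted p = 2.25e-05), and Etv5 had 78.3, 43.4 and 42.1 CPM in H1CKO, against 115 to 139 CPM in control (-1.25, adjusted p = 0.000127). Pseudogene Gm4798 matches 42.8% of the Etv5 transcript. The axon guidance ligand genes Slit1 and Ntn1 had 21.9 to 26.2 and 48.9 to 50.5 CPM in H1CKO, against 0.397 to 0.639 and 2.25 to 7.21 CPM in control (5.42 and 3.58, adjusted p = 9.1e-07 and 4.33e-06).

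Genes of IGF signalling and imprinted genes were called in both directions. Of 20 tested IGF genes 9 rose and 1 fell (2 or 3 under some alternatives), and of 38 imprinted genes 7 rose and 13 fell (median -0.08). Over all tested genes 27% rose and 25.6% fell, and the totals of both lists lie near the 52.6% called. Igf1r, the receptor, had 326, 325 and 340.1 CPM in H1CKO, against 148, 122, 147 and 120.2 CPM in control (1.30, SE 0.160, adjusted p = 3.93e-05). Igfbp3, a binding protein, had 97.9 to 128 CPM in H1CKO and 42.1 to 48.8 CPM in control (1.33, adjusted p = 1.67e-05). The ligand gene Igf2, chosen after its values were seen, had 2448 to 2701 CPM in H1CKO and 2628 to 3151 CPM in control (-0.16, SE 0.213, adjusted p = 0.542), and the gene model Gm49394 covers 70.4% of its exons. H19, the noncoding RNA of the same imprinted locus, had 9346, 9634 and 10929 CPM in H1CKO, against 11014, 10833, 11222 and 11551 CPM in control, and was not called either (-0.16, adjusted p = 0.537). The noncoding RNAs Rian and Mirg of the imprinted Dlk1 region fell, with 483 to 560.0 and 47.0 to 52.1 CPM in H1CKO, against 849 to 1013 and 95 to 103 CPM in control (-0.84 and -1.02, adjusted p = 3.04e-05 and 9.6e-06).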

How the data were processed

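Mouse yolk sac RNA (embryonic day 9.5) was sequenced as 11 libraries with the KAPA mRNA HyperPrep kit, per the labels' protocols. The tools named in the submitters' processing notes are STAR 2.5.2b, Subread 1.5.1 with featureCounts, and edgeR; the build named there is mm10. The deposited table holds raw read counts per gene, per the file headers, for 15061 genes. The authors also deposited log2 FPKM, used here only to rank genes in H1H2H2, and the log2 fold change, p-value and FDR of their own comparison, used only to compare calls.

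Counts were tested with edgeR 4.0.16 (R 4.3.3): filterByExpr left 14671 genes, libraries were scaled by TMM, and a quasi-likelihood model with 1 coefficient per group was fitted to all 11 libraries. H1CKO was tested against control with Benjamini-Hochberg adjustment over all tested genes (called: adjusted p under 0.05). The SE is the log2 fold change over the square root of F. Every adjusted p in the report comes from this test unless another tool is named. The test was tried on simulated data. Alternatives used DESeq2 1.42.0 and limma 3.58.1 (voom). Floors and intervals cover counting error only.

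The labels do not say whether libraries are separate embryos or litters. The p-values set the group difference against the spread between libraries within groups, estimated over all 11 libraries. That spread may be technical in part. The column names of control 1 and 2 share a yolk sac number. They differed by more than sampling noise, as did all replicate pairs, and were kept as separate samples.

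The members and gene lists were chosen with earlier results of these data known, so a list's count is a description. Each such count is to be read against 27% of all tested genes called higher and 25.6% called lower, also where the text does not repeat these shares. Named genes are Hand1, Hand2 and T; the 10 largest gains and 10 largest losses in mean CPM among called genes whose libraries did not overlap (Rn45s, unnamed, mitochondrial and sex-linked genes left out); per list the 6 smallest p and the most abundant member in control, of which the text gives some (a few are not reported here); the 10 most variable called genes among the H1CKO libraries with at least 5 CPM; and genes with no control count and at least 10 CPM in every H1CKO library. Overlaps and near-identical copies were looked up in GENCODE vM21 (same genome as mm10). Nothing in the counts' headers states the strand setting.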

Additional observations from a re-analysis of the deposited data

Results flagged for a closer look

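Among the 4 control libraries, 1 library lay far from the other 3 in some of the values reported, by the ratio of its gap to the group's range. Of 195 sets of 4 values examined, 19 exceeded Dixon's limit for 4 values, and chance gives about 1 in 20. For 3 of the 19, T, Olig2 and Foxi3, a single count in 1 library exceeds the limit by construction, whichever library holds it. Control 1 was apart in heart genes: Ttn at 122 CPM (others 11.6 to 14.4), Myh6 at 26.8 (0.132 to 0.343), Myl7 at 8.31 (0.0687 to 1.04) and Tnnt2 at 5.90 (1.24 to 1.49). It was also apart in Osr1 at 2.63 CPM (0.745 to 0.860), in T at 0.0710 CPM (a single count), and in the forebrain and midbrain list at 10.9 CPM (6.32 to 6.70). Control 2 was apart in basement membrane: Nid1 at 1184 CPM (184 to 205), Col4a1 at 7129 (1449 to 1507), the matrix list at 34859 (19354 to 21379) and the parietal endoderm list at 20652 (4524 to 4848). It also held the most posterior Hox transcripts, 29.3 CPM (3.91 to 6.82), and the single control counts of Olig2 and Foxi3, 0.0687 CPM each. Control 3 was apart in Tbx20 at 151 CPM (131 to 134), Cxcr4 at 0.521 (1.37 to 1.42) and the extraembryonic mesoderm list at 16180.1 (14256 to 14549.5). Control 4 was apart in the neural crest list at 186 CPM (224 to 229) and the iron list at 5415 (4412 to 4528). The groups of 3 H1CKO libraries are too small for this rule.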

How the results depend on the processing

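The counts of calls kept within 1.5 times of their value under all 18 alternatives: 5665 to 8407 genes called, 2887 to 4512 higher and 2778 to 4352 lower. Which direction held more calls changed with the setting. Of 146 genes followed, 134 were called, and 118 of those kept call and direction under every alternative that tested them. Hand1 kept its call throughout; Hand2 lost its call once sex was in the model (0.70, adjusted p = 0.213), and its log2 fold change ran from 0.80 to 0.98 as each library was left out. Some list counts moved by over 1.5 times, and the cause was not tested; under upper-quartile scaling 16 replication and mitosis genes were called higher, against 6. Leaving out control 2 and H1H2H2 9 together, and the bound for Myl2 without each H1CKO library, were added after seeing the data. A term for sex rests on the controls, of which 1 was male, and on H1H2H2, in which H1H2H2 10 was female and the others male. No H1CKO library was female. No paired analysis was possible because the groups share no replicate numbers. Depth limited genes with under 4 control counts to ratios with wide intervals.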

Other observations

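Genes of 4 other lists were called in both directions, where 52.6% of all tested genes were called. Of 15 tested trophoblast and decidua genes 8 fell and 1 rose, while 25.6% of all tested genes fell and 27% rose. None of them rose with sex in the model or without control 1, control 4 or any 1 H1CKO library. With limma-voom or without control 2 there were 2 that rose. Of 44 replication and mitosis genes 6 rose (3 without control 1, control 2 or H1CKO 6) and 7 fell (median 0.08). Mki67, a marker of dividing cells, had 1083, 1222 and 1148 CPM in H1CKO and 1214 to 1399 CPM in control (-0.16, SE 0.0874, edgeR adjusted p = 0.148), while Birc5, which acts in mitosis and in cell survival, had 99.0 to 109 CPM in H1CKO and 155 to 169.9 CPM in control (-0.65, adjusted p = 1.62e-05). Ccne1, cyclin E1, fell by 0.76 (adjusted p = 9.94e-05).

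Of 26 tested p53 target genes 5 rose and 8 fell. The cell death genes Bbc3 and Pmaip1 went opposite ways, with 5.65 to 10.5 CPM of Bbc3 in H1CKO and 2.98 to 3.84 CPM in control (1.29, adjusted p = 0.000598), and 3.13 to 3.46 CPM of Pmaip1 in H1CKO and 7.30 to 9.79 CPM in control (-1.37, adjusted p = 2.63e-05). Of 28 genes of the ATF4 response and of serine synthesis 5 rose and 9 fell. Ddit4, an inhibitor of mTORC1 that hypoxia and stress induce, had 33.8, 89.0 and 118 CPM in H1CKO, against 3.91, 1.58, 3.57 and 1.99 CPM in control (4.86, SE 0.601, adjusted p = 4.01e-05), and Vldlr, a lipoprotein receptor, 42.2 to 62.5 CPM in H1CKO and 2.45 to 11.8 CPM in control (2.96, adjusted p = 0.000119). Phgdh and Psph, of serine synthesis, fell (-0.94 and -1.42, adjusted p = 0.000107 and 2.21e-05); pseudogene Gm9347 matches 84.9% of the Phgdh transcript, and Cct6a on the opposite strand covers 26.1% of the Psph exons.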
